A study of Caenorhabditis elegans with 2 samples.

Results

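The members described here are the 476 stretches of the nuclear genome that hold the 612 nuclear tRNA genes of the C. elegans annotation. Each stretch, called a tRNA region, is the gene with 500 bp on each side, and stretches that overlapped were merged. They were chosen by annotation alone. They cover 0.571% of the nuclear genome, whose 93448 windows of 1073 bp, the median width of a tRNA region, served as background. Of the regions, 376 held 1 tRNA gene and 100 held 2 or more.

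The measurement was chromatin immunoprecipitation and sequencing (ChIP-seq) of CEH-90, a homeobox protein, in hermaphrodite L1 larvae of strain OP210. The strain carries the wgIs210 transgene, a CEH-90 fusion with GFP and FLAG at its C terminus, in an unc-119(ed3) background, and an anti-GFP antibody was used. The worms were taken 6 hours after synchronization by bleaching and starvation. The series held 1 group of 2 replicates from this single line, which the labels number as biological without describing their cultures. Every animal carried the fusion and the unc-119 allele, and the control behind the lists was not analysed here. Binding by CEH-90 and recovery of open chromatin as such cannot be told apart from these lists. With 1 group there was no comparison of conditions. The values below are counts, ranks and shares, without tests.

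Transfer RNAs carry amino acids to the ribosome. Their genes are transcribed by RNA polymerase III from a promoter inside the gene, the A and B boxes, which the factor TFIIIC binds. TFIIIC places TFIIIB, and through it the polymerase, just upstream of the start, and transcription ends in a run of T after the gene. A worm has many copies of most tRNA genes, often with identical sequence, scattered between and inside protein-coding genes.

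Peaks were read from 4 lists deposited in build ce11. The list of both replicates pooled held 30000 peaks with background, the list of replicate 1 held 23796 and that of replicate 2 held 30000. A list cut by irreproducible discovery rate (IDR), a measure of agreement between replicates, held 765 peaks and is called the IDR list, made up of the 765 strongest of the pooled list. Signal is the authors' own value per peak, with no stated scaling, and is used to rank and describe peaks within a list, so signals of different lists have no common scale. Read depth behind the peaks is unknown. Intervals are exact binomial (Clopper-Pearson) at 95% and cover counting error over regions or peaks only.

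In the IDR list, 10 of the 476 tRNA regions held a summit, with 11 summits in all. In 6 of the regions such a summit lay within 60 bp of the 5' end of a tRNA gene. The genes of 5 of the 6 are printed next, with the summit inside the stretch shown, which runs from 70 bases before the gene to 15 bases after it, on the strand of the gene. They show how near the summit was to the start of the gene, and that the bodies of F46G11.t2 and T23F1.t2 were identical while the bases before them were not. The gene is in capitals. The stretches were cut from the RefSeq copy of build ce11 (WBcel235), at chrX:5801196-5801352 (F46G11.t2), chrX:3035961-3036117 (M02F4.t2), chrV:15465210-15465366 (T23F1.t2), chrX:3371407-3371563 (ZK563.t1) and chrIII:8678482-8678638 (sup-5), all on the minus strand.
F46G11.t2, proline: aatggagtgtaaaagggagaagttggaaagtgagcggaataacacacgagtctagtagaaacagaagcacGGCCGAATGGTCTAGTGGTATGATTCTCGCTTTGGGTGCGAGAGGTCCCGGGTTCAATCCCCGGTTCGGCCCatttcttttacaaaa
M02F4.t2, glutamate: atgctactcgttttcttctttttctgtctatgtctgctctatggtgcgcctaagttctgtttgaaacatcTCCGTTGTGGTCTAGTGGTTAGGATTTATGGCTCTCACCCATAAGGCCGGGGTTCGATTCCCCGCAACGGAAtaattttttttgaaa
T23F1.t2, proline: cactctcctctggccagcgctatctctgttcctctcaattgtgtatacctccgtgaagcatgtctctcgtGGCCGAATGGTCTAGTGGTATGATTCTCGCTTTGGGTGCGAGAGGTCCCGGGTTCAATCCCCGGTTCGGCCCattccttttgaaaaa
ZK563.t1, threonine: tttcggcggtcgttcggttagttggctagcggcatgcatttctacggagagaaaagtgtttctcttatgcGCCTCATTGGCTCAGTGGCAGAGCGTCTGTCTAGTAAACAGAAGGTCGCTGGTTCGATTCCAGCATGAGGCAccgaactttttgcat
sup-5, tryptophan: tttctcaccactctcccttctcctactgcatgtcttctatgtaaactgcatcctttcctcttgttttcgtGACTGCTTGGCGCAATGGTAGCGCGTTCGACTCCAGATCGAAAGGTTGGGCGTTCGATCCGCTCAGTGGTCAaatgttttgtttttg

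The summit was base 11 of the F46G11.t2 stretch, base 31 of M02F4.t2, base 78 of T23F1.t2, base 45 of ZK563.t1 and base 60 of sup-5, counted from its 5' end. All but that of T23F1.t2 were therefore before the gene. Each of the 5 had TTTT within the 15 bases after the gene. These 5 were picked from the strongest regions after their values were seen, sup-5 from outside the 8 regions set for this.

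The strongest peak in any tRNA region was at Y38E10A.t1, an alanine tRNA gene on chromosome II at 12678314 to 12678385. Its signal was 540.2 in the pooled list (rank 83), 237.5 in replicate 1 and 298.5 in replicate 2. The summit, at 12678072, lay 242 bp before the tRNA gene and also in the promoter windows of the protein-coding genes Y38E10A.22 and Y38E10A.24, 262 bp before the start of Y38E10A.22. A promoter window here runs from 1000 bp upstream to 200 bp downstream of a protein-coding transcript start. Signal from these promoters and from the tRNA gene cannot be told apart here.

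The second was at C18A11.t2 and C18A11.t1, arginine and proline tRNA genes that point away from each other on X. The signal was 171.8 (rank 227), with 34.2 in replicate 1 (rank 640) and 118.4 in replicate 2 (rank 176). The summit at 8036442 was 315 bp from the 5' end of C18A11.t2, beyond its 3' end. The nearest protein-coding start, 4871 bp away, was that of xol-1, the switch gene of sex determination.

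The other 9 IDR summits were weaker, at signals of 72.8 to 96.0, and 6 of the 9 lay within 60 bp of the 5' end of a tRNA gene. At sup-5, at 8678497 to 8678568 on chromosome III in an intron of fli-1, the summit was 11 bp before the gene. Mutations in sup-5 that change its anticodon give suppressors of amber stop codons. Its signal was 75.8 (rank 669), with 42.8 in replicate 1 (rank 445) and 42.6 in replicate 2 (rank 719), among the 765 strongest of each.

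At ZK563.t1, a threonine tRNA gene in an intron of ZK563.2, the summit was 26 bp before the gene. The signal was 82.9 (rank 570), with 42.3 and 43.7 in replicates 1 and 2. At F47G6.t1, an arginine tRNA gene in an intron of the myosin gene spe-15 on chromosome I, it was 32 bp before the gene. There the signal was 94.5 (rank 461), with 40.8 and 51.5 in the replicates. All 3 genes thus carried a summit close before the gene, inside a protein-coding host.

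At M02F4.t2 and M02F4.t1, a divergent pair for glutamate and glycine, the summit was 40 bp before M02F4.t2, in the gap of the pair. The signal was 86.5 (rank 544), with 33.8 in replicate 1 and 51.4 in replicate 2. F46G11.t2 and F46G11.t1, a divergent pair for proline, had 2 IDR peaks. The stronger had its summit 60 bp before F46G11.t2, with a signal of 93.2 (rank 467) and 41.1 and 44.3 in the replicates. The weaker was 185 bp from that 5' end on the other side, with a signal of 72.8 (rank 728), 46.4 in replicate 2 and no summit within 100 bp in replicate 1. The other 10 peaks of the IDR list in tRNA regions had a summit within 100 bp in each replicate. At 2 of them, T23F1.t2 (rank 954) and K11H3.t2 (rank 771), that summit was not among the 765 strongest of replicate 1.

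T23F1.t1 and T23F1.t2, for lysine and proline, had the summit 7 bp inside T23F1.t2, at a signal of 83.0 (rank 567), with 28.9 and 56.2 in the replicates. This summit was also in the promoter windows of pqn-71 and rocf-1. At K11H3.t2 and K11H3.t1, serine tRNA genes in an intron of the potassium channel gene twk-48, it was 135 bp before K11H3.t2. The signal was 96.0 (rank 446), with 31.6 and 50.1 in the replicates. At F59C12.t2, for aspartate in an intron of F59C12.3, the summit was 467 bp before the gene, with a signal of 77.2 (rank 650) and 42.3 and 41.5 in the replicates. The summit of replicate 1, 46 bp away, lay outside the region, inside which that replicate reached only rank 2586 (signal 21.1). Protein-coding promoter windows held 2 of the 11 summits, those of Y38E10A.t1 and T23F1.t2, against 79.7% of all IDR summits. The authors' −log10 q of the 11 peaks ran from 1.62 to 2.98.

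**Figure D1:**
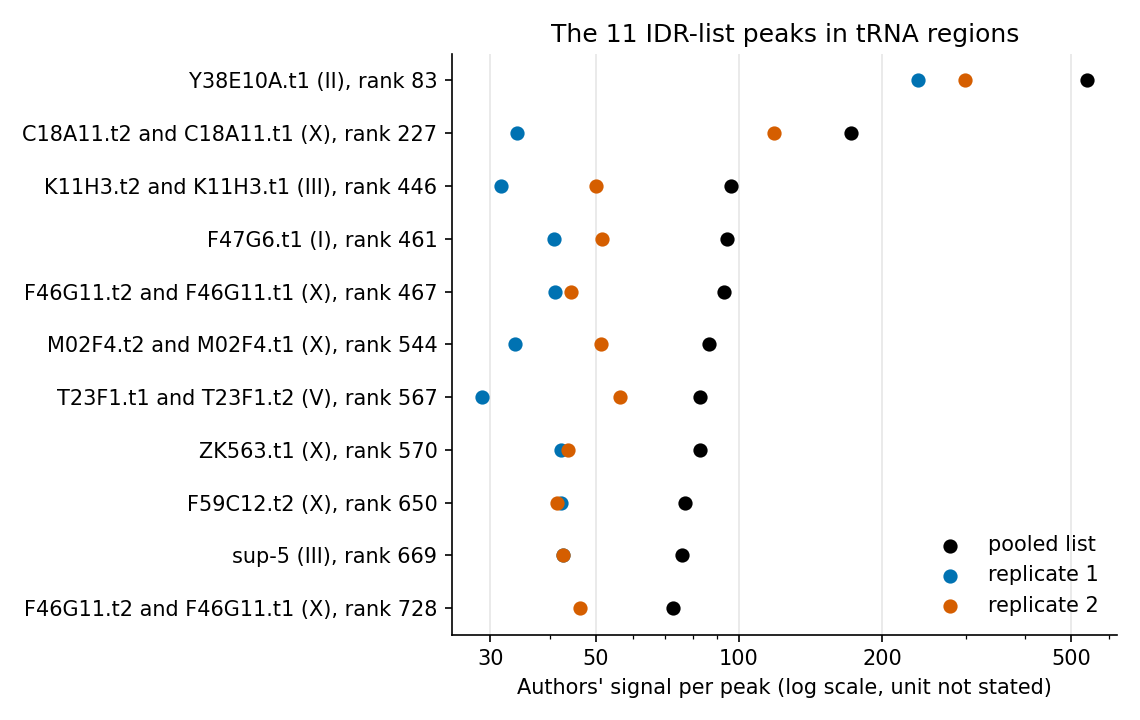
Authors' signal (log axis) of the 11 IDR-list peaks in tRNA regions, with 1 point each for the pooled list (black), replicate 1 (blue) and replicate 2 (orange), and the chromosome in brackets. The peak at Y38E10A.t1 stands far to the right at 540.2, the 9 weakest lie between 72.8 and 96.0 in the pooled list, and the last has no point for replicate 1. At sup-5 the replicates overlap.

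A share of 2.10% of tRNA regions with an IDR summit (10 of 476, 1.01 to 3.83%) stood beside 0.792% of the genome windows. Per length, the regions held 19.2 IDR summits per Mb and the genome 7.63. The distance between the shares varied with rank. Among the 382 strongest peaks, 0.420% of tRNA regions (2 regions, 0.0509 to 1.51%) and 0.398% of windows had a summit, an interval too wide to tell whether they differ there. Among ranks 383 to 765 the shares were 1.68% and 0.404%, and among the next 765 peaks, below the IDR threshold, 6.51% (31 regions) and 0.809%.

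The share of peaks that lay in tRNA regions, another count of the same summits, took the same course. It was 0.524% (2 of 382, 0.0635 to 1.88%) at the top of the pooled list, beside 0.571% of bases. In ranks 383 to 765 it was 2.35% (9 of 383, 1.08 to 4.41%). The highest value was just below the threshold, at 4.18% (32 of 765, 2.88 to 5.85%) in ranks 766 to 1530, with an interval that overlaps the one before it. From there it declined to 2.19% up to rank 5000, 1.46% up to 10000, 1.20% up to 20000 and 0.860% in the last 10000.

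**Figure D2:**
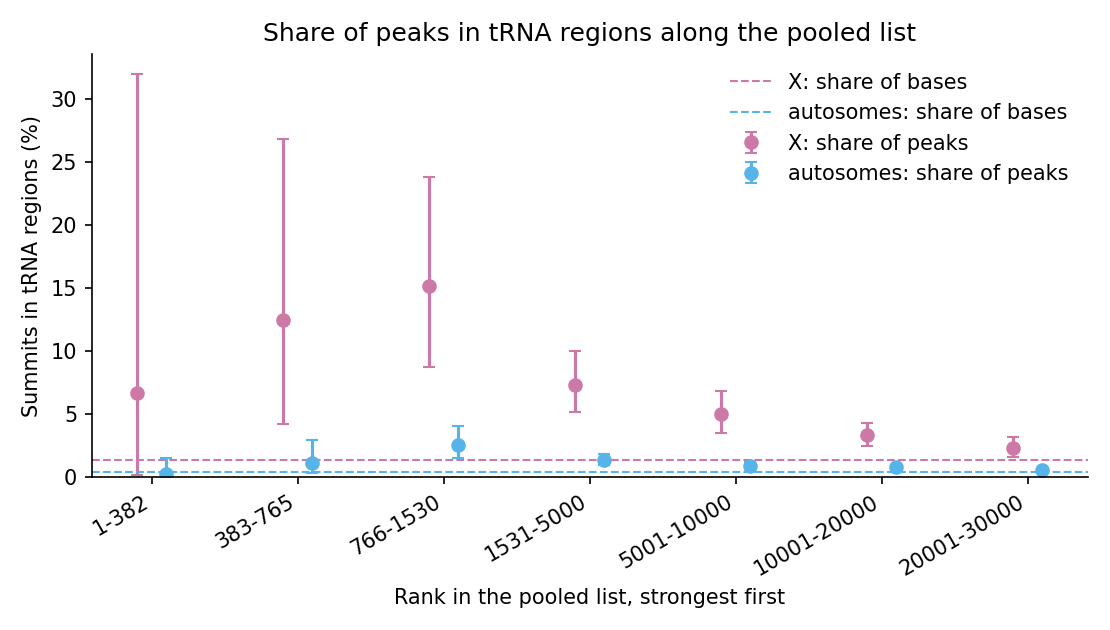
Percent of pooled-list peaks with the summit in a tRNA region, by rank, for X and for the autosomes, with exact 95% intervals; dashed lines are the percent of bases in tRNA regions, 1.38% of X and 0.398% of the autosomes. On both, the highest share was in ranks 766 to 1530, at 15.2% of the X peaks and 2.55% of the autosomal ones, with intervals that overlap those of the bins on either side.

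The 10 strongest regions without an IDR summit ranked 785 to 1016, at signals of 70.6 to 63.3, where the weakest IDR peak had 71.4. In order they were T28B4.t1 (phenylalanine), R04A9.t1 (glutamine), F41D9.t1 with F41D9.t2 (arginine), Y82E9BR.t1 (glycine), M01E5.t1 (lysine), C03A3.t1 and F09B9.t1 (arginine), T22F7.t1 (tyrosine), Y49E10.t1 (glutamine) and M57.t1 (arginine). At T22F7.t1 the summit was 1 bp from the 5' end, at C03A3.t1 12 bp, at M01E5.t1 14 bp, at F09B9.t1 42 bp and at Y49E10.t1 44 bp. The others lay 81 to 383 bp away, and that of R04A9.t1 was in the promoter window of its host gene ZK1193.2. The replicates ranked some of these far apart. F41D9.t2 had 15.9 in replicate 1 (rank 7136) and 50.8 in replicate 2 (rank 493), and R04A9.t1 had no summit within 100 bp in replicate 1.

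In the whole pooled list, 297 of the 476 tRNA regions held a summit, or 62.4% (57.9 to 66.8%), against 27.3% of the genome windows. The other 179 regions held none. This says only that no summit fell inside them, since a peak with its summit outside can reach in. F15G9.t1 and F15G9.t2, alanine genes in an intron of him-4, had no pooled-list summit, but one at rank 311 in replicate 1 (signal 56.3) and one at rank 321 in replicate 2 (signal 66.5). The 398 summits in tRNA regions came to 695.7 per Mb, and the genome had 299.2 per Mb. Most of these peaks were weak. The strongest summit per region had a median rank of 8107 (quartiles 2710 and 16162), and that of the genome windows with a summit 14116 (6862.5 and 21735.5).

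In the pooled list, summits gathered close before the tRNA gene. In the 50 bp upstream of the 612 tRNA 5' ends there were 60 pooled-list summits, or 1961 per Mb, which is 6.55 times the mean of the list over the nuclear genome. The adjoining 50 bp further upstream held 37 summits and the first 50 bp of the gene 30. The 50 bp after that, which for most genes span the 3' end, held 18, and the next bins of 50 bp held 27 and 30. Farther than 500 bp, bins held 5 to 17 summits, and the density of 341.5 per Mb was close to the mean. Neighbouring tRNA genes share summits in this count. In regions with 1 tRNA gene, the ratio in the 50 bp upstream was 8.18 (46 summits at 376 genes).

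Each replicate alone also had more summits around the 5' end than farther off, but without the sharp upstream bin. The ratio in the 50 bp upstream was 4.82 in replicate 1 (35 summits) and 4.81 in replicate 2 (44 summits). Replicate 1 had nearly as many in the bin before it (34) and in the first 50 bp of the gene (30), and replicate 2 had 40 in the first 50 bp of the gene. In regions that touched no protein-coding promoter window the ratio in the pooled list was 6.67 (34 summits at 341 genes). Promoter windows held 28.6% of the summits in tRNA regions and 33.7% of all pooled-list summits, and they covered 25.3% of the bases of tRNA regions.

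**Figure D3:**
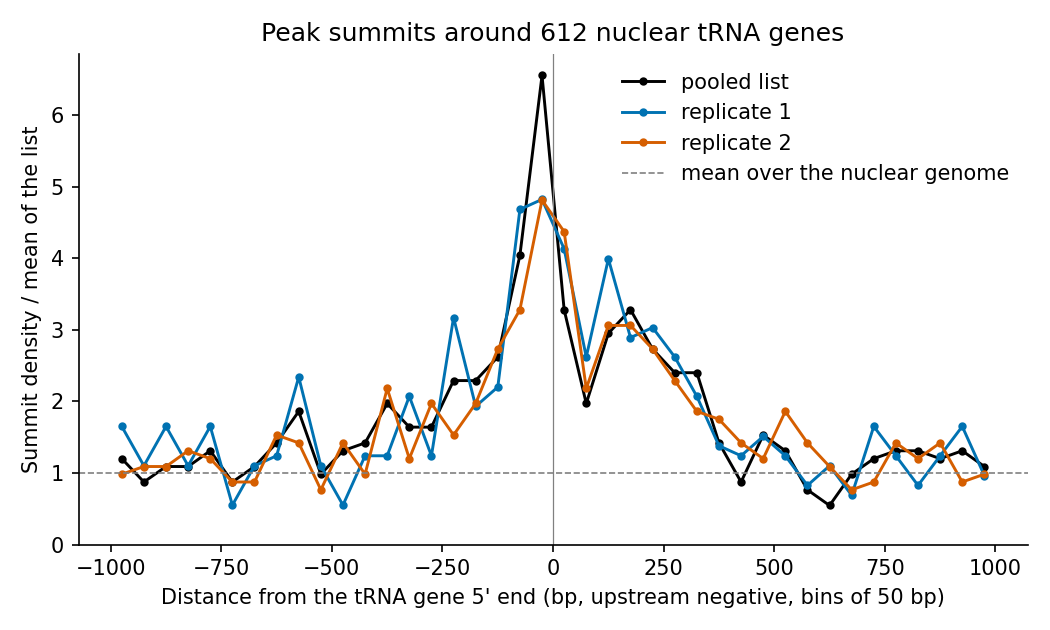
Summit density in bins of 50 bp around the 5' ends of 612 tRNA genes, divided by the genome mean of the same list, for the pooled list (black), replicate 1 (blue) and replicate 2 (orange); the dashed line is the genome mean. All 3 lines peak in the bin just upstream, at 6.55, 4.82 and 4.81, of which that of replicate 1 hardly exceeds the bin before it at 4.68; beyond 500 bp the black line stays between 0.546 and 1.86.

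The X chromosome carried 276 of the 612 tRNA genes (45.1%) on 17.7% of the nuclear sequence, in 195 of the regions. IDR peaks were few on X, yet 6 of its 55 IDR summits lay in tRNA regions (10.9%, 4.11 to 22.3%), which cover 1.38% of X. On the autosomes it was 5 of 710 (0.704%, 0.229 to 1.64%), in 0.398% of the bases. Of the 10 regions with an IDR summit, 5 were on X. Their share of the X regions was 2.56% (0.838 to 5.88%), beside 0.327% of X windows. For the autosomes it was 1.78% (5 of 281, 0.580 to 4.10%), beside 0.892% of windows. The intervals for tRNA regions on X and on autosomes overlap.

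In the pooled list, 134 of 195 X regions held a summit (68.7%, 61.7 to 75.2%), beside 23.8% of X windows, and 163 of 281 autosomal regions (58.0%, 52.0 to 63.8%), beside 28.0% of windows. By chromosome the share ran from 49.3% on V and 55% on IV to 67.3% on III and 68.7% on X, and each was above the share of windows on the same chromosome. In the 50 bp upstream of the 5' end the density was 7.09 times the mean of X (25 summits) and 6.75 times the mean of the autosomes (35 summits) in the pooled list. In replicates 1 and 2 it was 6.83 and 5.80 on X and 3.89 and 4.46 on the autosomes, so the pooled values were not near equal in the single libraries. In the pooled list this bin had 1812 summits per Mb on X and 2083 on the autosomes. Farther than 500 bp, X had 358.7 per Mb, above its mean of 255.4, and the autosomes 327.4, beside 308.6. Set against these surroundings, the bin was not fuller on X than on the autosomes in the pooled list, but it was in each replicate. Replicate 1 had 1377 summits per Mb in the bin on X, beside 286.2 farther off. On the autosomes it had 952.4, beside 303.6. Replicate 2 had 1522 on X, beside 340.6, and 1369 on the autosomes, beside 348.2. On X the bin from 100 to 51 bp upstream was as full (26 summits, 7.38 times the mean), and on the autosomes replicate 1 had more summits in the first 50 bp of the gene (23) than before it (16). Chromosome IV held no IDR summit in its 60 regions, with an exact upper bound of 5.96%, and its strongest region was M57.t1, in an intron of unc-33, at rank 1016. The strongest on I was F47G6.t1, on II Y38E10A.t1, on III K11H3.t2 and K11H3.t1, on V T23F1.t1 and T23F1.t2, and on X C18A11.t2 and C18A11.t1.

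**Figure D4:**
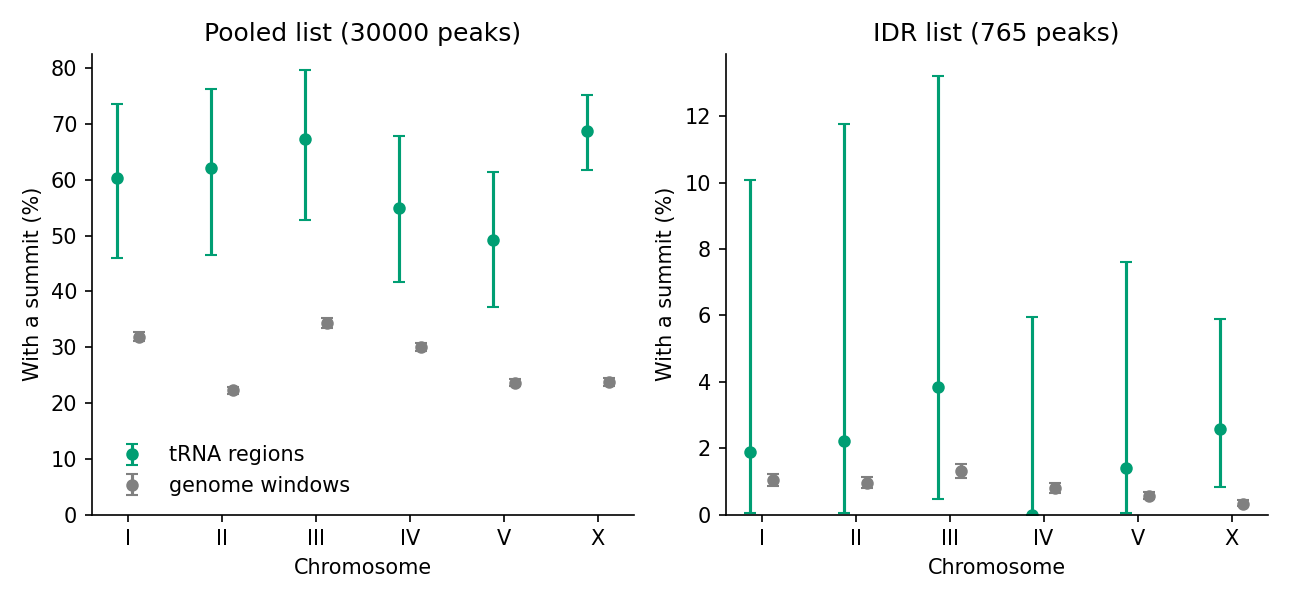
Percent of tRNA regions (green) and of genome windows of 1073 bp (grey) with a summit in the pooled list (left) and the IDR list (right), by chromosome, with exact 95% intervals. In the pooled list every tRNA interval lies above the share of windows on its chromosome; in the IDR list the intervals are wide, with 0 to 5 regions per chromosome.

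Intronic and intergenic tRNA regions held summits in shares with overlapping intervals. Introns of protein-coding genes held all tRNA genes of 228 regions, and 230 regions had theirs outside protein-coding genes. An IDR summit was in 5 of the intronic (2.19%, 0.716 to 5.04%) and 5 of the intergenic regions (2.17%, 0.710 to 5.00%). The background differed, at 0.487% of windows centred in an intron and 1.01% of windows centred between genes. In the pooled list the shares were 59.6% of intronic regions (136, 53.0 to 66.1%) and 64.8% of intergenic ones (149, 58.2 to 70.9%), beside 29.4% and 29.6% of windows. The density in the 50 bp upstream was 6.61 times the list mean for intronic and 6.50 times for intergenic genes in the pooled list. The replicates were less even, with 3.87 and 4.25 for intronic and 5.55 and 5.03 for intergenic genes in replicates 1 and 2. Intronic tRNA genes on the strand of their host had a summit within 500 bp at 91 of 161 (56.5%), and those on the other strand at 72 of 122 (59.0%).

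Identical tRNA genes differed from place to place in the signal of the strongest summit within 500 bp. The 612 genes had 200 distinct sequences. Among them were 143 genes of a sequence found only once and 29 sequences with 6 to 29 copies, 387 genes together. Reads from identical genes cannot be placed by the gene body alone, and how the authors treated such reads is not given in the sources used here. Genes with 6 or more copies had a pooled-list summit within 500 bp at 63.0% (244 of 387, 58.0 to 67.9%), and single-copy genes at 46.9% (67 of 143, 38.5 to 55.4%). The part of copy number in this was not tested. All 29 families had at least 1 member with a summit, and in 1 of them, the 6 arginine genes led by M57.t1, every member did. Of all 612 genes 59.0% had one, so with 6 or more members per family these counts say little about the families.

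The tryptophan genes show this spread within 1 sequence. Of 12, 10 are identical, sup-5 among them, and sup-5 alone was in the IDR list, at a signal of 75.8. The suppressor gene sup-28 on X came next at 50.1 (rank 1979), with its summit 155 bp from the 5' end. Then followed sup-7 at 30.4 (490 bp from the 5' end), sup-33 at 24.9 (355 bp), Y4C6B.t2 at 21.6 (139 bp) and sup-24 at 21.4 (141 bp). The genes sup-29, sup-21, rtw-6 and Y95B8A.t1 had no pooled-list summit within 500 bp. Of the 4 without one, sup-29 and Y95B8A.t1 had none in either replicate as well. In the pooled list, sup-5 alone among the 10 had a summit within 100 bp of its 5' end. In single replicates there were others, at rtw-6 in replicate 2 (2 bp), Y4C6B.t2 in replicate 1 (50 bp), sup-24 in replicate 2 (58 bp) and sup-28 in replicate 1 (95 bp). The copies of proline tRNA shared by F46G11 and T23F1 numbered 24, of which 14 had a summit at signals of 24.1 to 93.2 (median 29.4), 5 of them within 100 bp of the 5' end, and 10 had none. The 20 copies identical to M02F4.t2 had a summit at 9, with a median signal of 36.2.

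By amino acid carried, the shares overlapped widely. Among amino acids with 10 or more genes, the share with a pooled-list summit within 500 bp ran from 40.0% for histidine and methionine (8 of 20 each) to 75% for asparagine (15 of 20), and for all 612 genes it was 59.0%. The exact interval of each of these amino acids included 59.0%, as did 19.1 to 63.9% for histidine and 50.9 to 91.3% for asparagine. A summit within 100 bp of the 5' end was found at 146 genes (23.9%). Among amino acids with 10 or more genes, aspartate had the highest such share, 12 of 27 genes (44.4%, 25.5 to 64.7%), and tryptophan the lowest, 1 of 12. The interval of aspartate lay above the share of all genes, but aspartate was picked as the highest of all amino acids with 10 or more genes.

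Summits near the 5' end of tRNA genes were richer in G and C than other pooled-list summits, and the windows around them reach into the gene. The letters GGTTCGA, the core of the B box, occur in 395 of the 612 tRNA genes (64.5%), in 386 of them starting 22 bases before the 3' end, and in 0.502% of genome windows as long as the median gene. Within 50 bp of the summit they were present, on either strand, at 30 of 143 summits that lay within 100 bp of a tRNA 5' end (21.0%), and at 0.784% of those farther off. These shares follow from position. Around a summit before a gene of the median 72 bp, the window ends short of these letters. They were at 0 of the 11 IDR summits in tRNA regions, which position fixed as well. Those lay before the gene, well beyond its 3' end or, at T23F1.t2, in a gene without the letters. The run TTTT was within 20 bases after the gene, on its strand, at 98.4% of tRNA genes and at 25.8% of windows of that length. Summits within 100 bp of the 5' end had 46.7% GC on average (SD 7.48, n = 143), and those farther off in tRNA regions 34.4% (SD 8.40, n = 255). Gene bodies had 58.3% GC and the 50 bases before them 42.6%.

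The 6-mers GGCCAC and GGCCTA, frequent at the summits of IDR peaks at large, were searched within 50 bp of the summit on both strands. GGCCAC was at 16 of the 143 summits near a 5' end (11.2%, 6.53 to 17.5%), at 2.46% of pooled-list summits outside tRNA regions and at 19.1% of IDR summits outside them. GGCCTA was at 9 of the 143 (6.29%, 2.92 to 11.6%), at 2.60% and at 18.8%. Genome windows of that length, 101 bp, held them at 1.69% and 1.79%. Windows at tRNA 5' ends without a summit were not searched, so the part of tRNA gene sequence in these shares was not tested. Of the 11 IDR summits in tRNA regions, 3 had at least 1 of the 6-mers: Y38E10A.t1 had GGCCTA, T23F1.t2 had GGCCAC and F47G6.t1 had both. The windows of the first and second, at chrII:12678022-12678122 and chrV:15465239-15465339 on the plus strand, show where the match, in capitals, lay relative to the summit at base 51. At T23F1.t2 it started at base 55 and spanned the start of the tRNA gene, whose first bases, read on the other strand, are the GGCC of the match.
Y38E10A.t1: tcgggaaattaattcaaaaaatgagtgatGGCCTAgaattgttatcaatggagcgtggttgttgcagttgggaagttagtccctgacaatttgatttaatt
T23F1.t2: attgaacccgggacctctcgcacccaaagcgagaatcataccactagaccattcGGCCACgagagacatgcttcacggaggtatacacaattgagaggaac

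Other short noncoding RNA genes, given the same 500 bp on each side, ordered differently in the 2 lists. In the pooled list, tRNA regions had the highest share with a summit, 62.4%, followed by snoRNA (52.3%, 46.7 to 57.9%), miRNA (38.5%, 32.0 to 45.2%) and snRNA regions (35.6%, 26.4 to 45.6%). In the IDR list they had the lowest, 2.10%, next to miRNA regions with 2.26% (5 of 221) and below snoRNA with 8.10% (26 of 321, 5.36 to 11.6%) and snRNA regions with 8.65% (9 of 104, 4.03 to 15.8%). The intervals for tRNA regions did not overlap those of snoRNA and snRNA regions in the IDR list, nor those of miRNA and snRNA regions in the pooled list. No test was made of these differences.

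The replicates marked the same tRNA regions in part. A summit of replicate 1 was in 244 regions and one of replicate 2 in 287. There were 195 regions with both, 49 with replicate 1 alone, 92 with replicate 2 alone and 140 with neither. Of the 93448 genome windows, 11767 had both, 9429 replicate 1 alone, 13959 replicate 2 alone and 58293 neither. Among the 765 strongest peaks of each replicate, 13 regions had a summit in replicate 1, 13 in replicate 2 and 9 in both. For the windows these counts were 741, 738 and 511, so the shared part was near that of the tRNA regions. Across the 195 regions with both, the strongest signals had Spearman's rho of 0.440, beside 0.370 across the genome windows with both. The points share the 2 libraries and neighbouring regions are not independent, so rho is a description.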

How the data were processed

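ChIP-seq of CEH-90 was read from peak lists of 2 replicates, their pool and an IDR-thresholded list in build ce11. Per the submitters' file descriptions, replicate and pooled lists came from alignments and 1 control. The sources used here do not name the aligner, the peak caller or the IDR threshold. The signal the authors gave each peak (deposited column 7) ranked peaks within a list, and their q-value (deposited column 9, as −log10) was only described. Depth is unknown. Lists in ce10 were not used, since no annotation of that build was at hand.

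Chromosome lengths fit WBcel235. tRNA genes came from Ensembl release 115, and names and amino acids from RefSeq, which had all 612 at the same coordinates (5 without an amino acid). Regions, windows of 1073 bp tiling the nuclear genome, positions from the 5' end and motif matches were computed with Python 3.11.15, pandas 2.3.3, numpy 2.4.6 and SciPy 1.17.1. Counting was tested on simulated data. Replicate summits were matched within 100 bp. A tRNA gene was intronic where it lay inside a protein-coding gene and overlapped none of its exons.

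Genes were named by rule: those of regions with an IDR summit, the 10 strongest other regions, the strongest per chromosome and the 3 regions with most genes. The tryptophan and proline families, with their identical copies, were added after their values were seen. Members, lists and rules were chosen with earlier results of these data known. No tests were made over regions.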

Additional observations from a re-analysis of the deposited data

How the results depend on the processing

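Over 9 results and 66 alternatives, 52 values stayed within the limits set (1.5 times a count, the 95% interval of a share or a density, 1 SD between the replicates for a median) and 14 moved. The 382 strongest IDR peaks left 2 tRNA regions with a summit in place of 10, with shares of 0.0% of intronic, 0.513% of X and 0.356% of autosomal regions. The 10000 strongest pooled peaks left 170 regions in place of 297, a median rank of 3317.5 in place of 8107 and a median distance of the strongest summit from the nearest 5' end of 109 bp in place of 141 bp, since fewer and stronger peaks enter. Without regions that touch a promoter window, 161 of 272 had a pooled summit. That distance was 100.5 bp with flanks of 250 bp and 183 bp with 1000 bp, as the flank sets its range. Using 1 replicate alone gave a median rank of 6234 to 7727, a distance of 120 to 149 bp and a density ratio in the 50 bp upstream of 4.81 to 4.82 in place of 6.55, below its counting interval of 5.00 to 8.43. The cause was not tested. The alternatives for this ratio were chosen after seeing the data. With 1 replicate left out, neither the IDR list nor the pooled list could be used. The strongest peaks of the other replicate, as many as the IDR list held, and its full list took their place. Replicate 2 alone had a summit in 13 regions among its strongest peaks and in 287 in its full list. For replicate 1 alone these counts were 13 and 244. No paired analysis was possible because the 2 samples form 1 group. Only 10 regions stand behind the IDR shares by chromosome and gene place, so their intervals are wide.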

Other observations

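The 3 regions with most genes, all on X, had no IDR summit. F22F1.t2 to F22F1.t7, 6 genes for serine, aspartate, methionine and isoleucine, had 2 pooled-list summits, the stronger at a signal of 45.4 (rank 2786). F28H6.t2 to F28H6.t7, 6 histidine genes, had none in the pooled list and in replicate 2, and 2 in replicate 1. K01A12.t1 to K01A12.t5, 5 arginine and cysteine genes in an intron, had 1, at 33.8 (rank 8034). Of the 100 regions with 2 or more genes, 71 had a pooled-list summit and 5 an IDR summit, and of the 376 with 1 gene 226 and 5. The former are also the wider ones.

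Pairs of tRNA genes in regions of 2 were divergent in 37 regions, tandem in 26 and convergent in 15. A pooled-list summit was in 70.3% of the divergent, 69.2% of the tandem and 66.7% of the convergent regions, and an IDR summit in 3, 1 and 1. Exons of protein-coding genes overlapped 10 tRNA genes, of which 6 had a pooled-list summit within 500 bp, the strongest at C28G1.t1 for glutamate (53.8, rank 1566) and K02D7.t1 for aspartate (47.3, rank 2410). These groupings were chosen after the values were seen.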
